A study of Mus musculus with 2 samples.

Results

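Fetal liver cells carrying RNA of myeloid, erythroid or mast cell genes were examined within a sort that was designed for lymphoid progenitors. The cells were chosen by their own counts of unique molecular identifiers (UMIs), each of which marks 1 captured RNA molecule. Of 8583 fetal liver cells with at least 500 genes and at most 10% of UMIs on mitochondrially encoded genes, 618 held at least 10 UMIs of Mpo, Ctsg, Car1, Klf1, Ms4a2, Mcpt8 and Cpa3 together and fewer than 5 UMIs of the B lineage genes Cd79a, Vpreb3, Igll1, Vpreb1, Ebf1 and Pax5. They made up 7.20% of the cells (exact Clopper-Pearson 95% interval 6.66 to 7.77%, counting error only) and held 13.4% of their UMIs. Because these 7 genes selected the cells, the levels of these genes are descriptions. All further values compare cells of the same library, so none carries a p-value.

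The fetal liver library was 1 of 2 libraries in the series, with adult bone marrow as the other. Both came from untreated wild-type B6 mice. The fetal livers were of stage E14.5 per the series' design text, although both samples are labelled 6 to 8 weeks old. Per the labels' protocols, the gate took lineage-negative, CD45+, CD127+, Flt3-, α4β7+, CD25- cells, with purity and viability both above 90%. How many animals went into each library, and whether they were pooled, is not stated. Both samples carry 1 shared batch label. With 1 library for each tissue, the intervals below hold counting error alone and give no spread between animals.

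Blood cells of the fetal liver arise from multipotent progenitors that pass through restricted myeloid, erythroid and lymphoid stages. Granulocyte and monocyte progenitors load azurophil granules with enzymes such as myeloperoxidase, erythroid progenitors prepare haem and membrane proteins under Gata1 and Klf1, and mast cells and basophils fill granules with proteases and histamine and display the high-affinity receptor for immunoglobulin E. Innate lymphoid progenitors, for which the gate was designed, depend on Tcf7, Gata3 and Id2.

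The promoters of 4 of the selecting genes are shown because Gata1 and Gata2 stood at different levels in the groups of cells described below. Of the 7 selecting genes, 6 were found in the RefSeq promoter table, build GRCm38.p6, and Car1 was not in that table. Each sequence runs 5′ to 3′ on the gene's strand and ends before the annotated gene start. Capitals mark GATAA, the core of the Gata factor motif, or TTATC, the same motif on the other strand. Ctsg lies on the minus strand and its window is chr14:56102575-56102824. Klf1 lies on the plus strand, shown from chr8:84901732-84901927. Ms4a2 lies on the minus strand, shown from chr19:11623720-11623969. Cpa3 also lies on the minus strand, shown from chr3:20242182-20242431.
Ctsg: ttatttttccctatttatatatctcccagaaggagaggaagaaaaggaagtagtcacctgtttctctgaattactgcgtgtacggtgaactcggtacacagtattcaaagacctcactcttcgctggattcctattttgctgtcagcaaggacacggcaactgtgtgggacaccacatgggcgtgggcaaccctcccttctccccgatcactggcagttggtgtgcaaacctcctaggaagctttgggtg
Klf1: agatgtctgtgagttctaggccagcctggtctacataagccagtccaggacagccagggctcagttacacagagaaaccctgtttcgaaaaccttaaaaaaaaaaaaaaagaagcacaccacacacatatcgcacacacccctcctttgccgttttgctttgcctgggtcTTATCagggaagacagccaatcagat
Ms4a2: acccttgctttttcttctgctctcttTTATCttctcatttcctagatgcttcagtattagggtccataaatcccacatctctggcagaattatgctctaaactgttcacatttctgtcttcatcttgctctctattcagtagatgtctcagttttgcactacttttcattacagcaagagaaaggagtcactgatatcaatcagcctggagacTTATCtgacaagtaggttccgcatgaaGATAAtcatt
Cpa3: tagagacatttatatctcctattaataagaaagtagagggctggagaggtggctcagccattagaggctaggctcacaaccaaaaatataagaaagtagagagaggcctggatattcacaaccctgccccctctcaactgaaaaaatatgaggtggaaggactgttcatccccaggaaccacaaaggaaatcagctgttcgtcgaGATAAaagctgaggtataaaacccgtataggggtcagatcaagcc

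Within 250 bases before the RefSeq start, the motif occurred 3 times for Ms4a2, 1 time for Klf1, 1 time for Cpa3 and 0 times for Mpo, Ctsg and Mcpt8. Of all 32851 promoter windows of 250 bases in the table, 22.6% held it on either strand. A match describes letters in these windows and is not a measured binding site. In GENCODE M21, an annotation of mm10, the protease genes Mcpt8 (chr14:56082166-56085273) and Ctsg (chr14:56099881-56102574) are neighbours on chromosome 14, near the mast cell chymase gene Cma1 (chr14:55941451-55944675). Ms4a2 (chr19:11615523-11623719) lies beside Ms4a3 (chr19:11629496-11640851). Cpa3 (chr3:20215620-20242181) and Car1 (chr3:14766216-14808368) are both on chromosome 3.

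In all, 91781395 UMIs were counted over 8946 fetal liver barcodes and 30039931 UMIs over 7367 bone marrow barcodes. The 618 cells were compared with 7762 kept fetal liver cells that met neither the marker rule nor the B lineage limit, called the outside cells below, whose median depth was 8868.5 UMIs. A further 8 cells reached the marker minimum and were left out by the B lineage limit. The 2 libraries shared 19 cell barcodes, 0.212% of the fetal liver barcodes. Doublets, droplets that hold more than 1 cell, could not be called: Scrublet marked 2 fetal liver cells in all. Of the 6% of cells with the highest doublet scores, 55 were among the 618 cells (8.90%) and 449 were outside cells (5.78%).

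Each of the 618 cells was assigned to the marker group with most UMIs in it. Cpa3, Ms4a2 and Mcpt8, genes of mast cells and basophils, led in 433 cells (70.1%, interval 66.3 to 73.7%). Mpo and Ctsg, genes of granule enzymes, led in 112 cells (18.1%, 15.2 to 21.4%). Car1 and Klf1, a carbonic anhydrase and a transcription factor of erythroid cells, led in 67 cells (10.8%, 8.50 to 13.6%), and 6 cells were tied. Ms4a2 encodes the beta chain of the high-affinity immunoglobulin E receptor, Mcpt8 a basophil protease, and Cpa3 the mast cell carboxypeptidase. Of the 433 cells, 64 held a UMI of Ms4a2 or Mcpt8 and 369 held none of either. This division was made after the data were seen. The 64 are called Ms4a2-positive cells, since all 64 had at least 1 Ms4a2 UMI, and the 369 are called Cpa3-only cells.

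The Mpo/Ctsg-led cells held between 4 and 87 Mpo UMIs each, with a median of 20. Ctsg, the cathepsin G gene, had at least 1 UMI in 81 of the 112 cells. Mpo stood at 1039 counts per 1000000 UMIs (CPM) over these cells, against 20.6 CPM in Car1/Klf1-led cells, 457 CPM in Ms4a2-positive cells, 28.6 CPM in Cpa3-only cells and 3.47 CPM outside. These levels belong to a selecting gene and are descriptions.

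Car1 ranged from 0 to 99 UMIs per Car1/Klf1-led cell, with a median of 12, and was found in 66 of 67 cells. Klf1 had a UMI in 46 of them, up to 13 UMIs in a cell. Car1 stood at 754 CPM in this class, 17.9 CPM in Mpo/Ctsg-led cells, 14.0 CPM in Ms4a2-positive cells, 4.00 CPM in Cpa3-only cells and 2.45 CPM outside. Ctsg and Mcpt8 had 0 UMIs in all 67 cells.

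Cpa3 ranged from 2 to 412 UMIs in Ms4a2-positive cells, with a median of 23, and from 7 to 182 UMIs in Cpa3-only cells, with a median of 15. Its level was 1698 CPM in the former, 1001 CPM in the latter, 221 CPM in Mpo/Ctsg-led cells, 34.5 CPM in Car1/Klf1-led cells and 71.2 CPM outside. At least 1 Cpa3 UMI occurred in 23.9% of outside cells, or 12.7% after each cell was thinned to 3000 UMIs. Among 170 cells with at least 10 UMIs of the B lineage genes and under 10 marker UMIs, a type that should lack Cpa3, 5.29% held a Cpa3 UMI, at a median depth of 9620.5 UMIs against 8868.5 in outside cells. Thinned, that share was 1.80%. Mpo was found in 1.79% of outside cells and Ms4a2 in 0.180%, where the rule itself limits marker UMIs to 9 per cell. In the Ms4a2-positive cells Ms4a2 ranged from 1 to 35 UMIs per cell, with a median of 6. Mcpt8 was found in 37 of the 64 cells, with up to 91 UMIs.

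Marker groups overlapped within single droplets. At least 5 UMIs of more than 1 group were present in 139 of the 618 cells. Of these, 129 combined Mpo and Ctsg with the Cpa3 group, 12 combined Car1 and Klf1 with the Cpa3 group, 6 combined Mpo and Ctsg with Car1 and Klf1, and 4 held all 3. Doublets were not removed, and their part in these overlaps was not tested. The rule's threshold cut through a continuous range: 55 cells held 9 marker UMIs and 49 held 10. The lead group was that of Cpa3 in 48 of the 55 and 37 of the 49, and Tcf7, a lymphoid transcription factor, stood at 216 and 171 CPM.

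**Figure D1:**
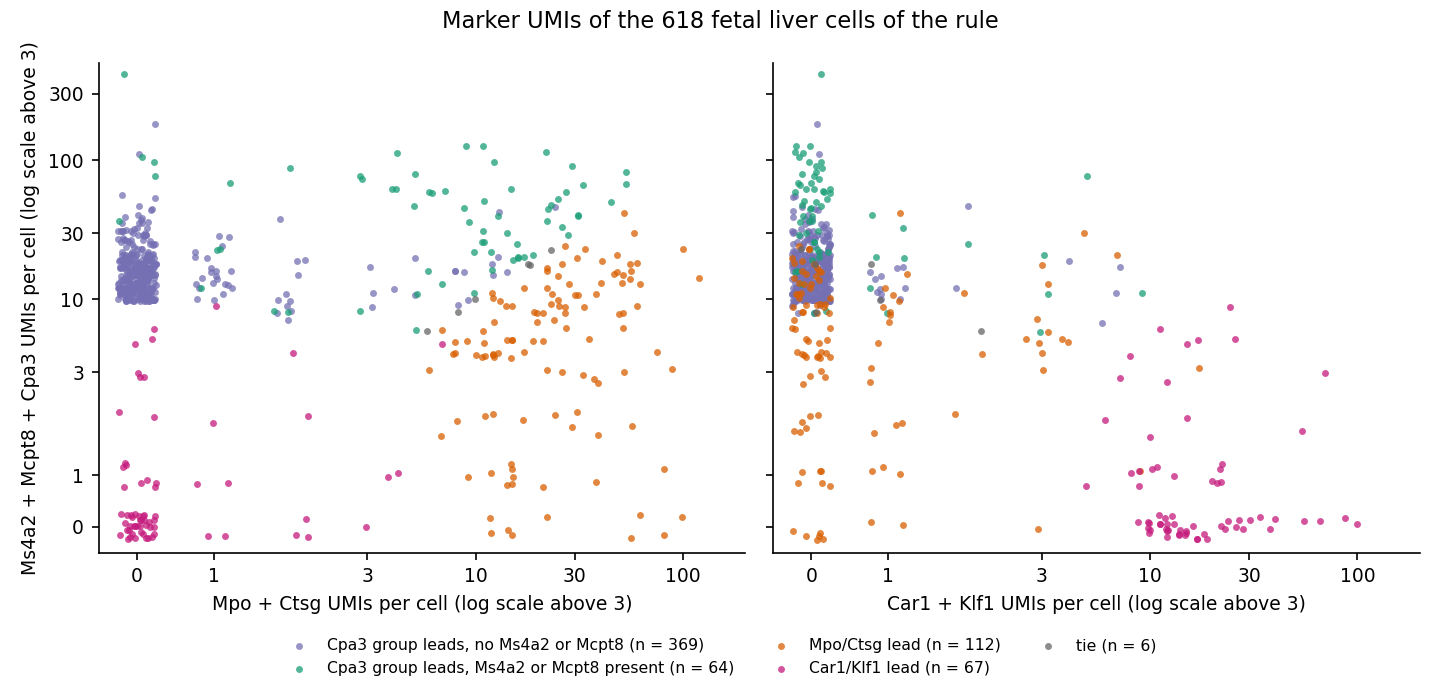
UMIs per cell of Ms4a2, Mcpt8 and Cpa3 (vertical) against UMIs of Mpo and Ctsg (left) or of Car1 and Klf1 (right) in the 618 selected fetal liver cells; each point is 1 cell, slightly displaced, and the axes are logarithmic above 3 UMIs. The 433 cells led by the Cpa3 group lie high on the vertical axis, most of them near 0 on the horizontal one, and cells with UMIs of 2 groups are more frequent in the left panel, in which 129 cells held at least 5 UMIs of both.

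Whether the names myeloid, erythroid and mast-like fit was checked with gene lists of the cells that the gate could hold. At least 5 UMIs of 18 innate lymphoid identity genes were found in 22 of 112 Mpo/Ctsg-led cells (19.6%), 11 of 67 Car1/Klf1-led cells (16.4%), 30 of 64 Ms4a2-positive cells (46.9%) and 340 of 369 Cpa3-only cells (92.1%). The share was 94.5% in outside cells. The median cell held 0.855, 0.439, 2.64 and 14.9 of these UMIs per 10000 in the 4 classes in that order, and 24.6 outside. For 27 mast cell and basophil genes other than Ms4a2, Mcpt8, Cpa3, Fcer1g and Kit, the medians were 5.15, 1.57, 24.7 and 1.48 UMIs per 10000, against 1.31 outside. The 64 Ms4a2-positive cells thus carried genes of mast cells and basophils. The list pools both cell types, so it cannot tell whether mast-like or basophil-like is the better name. The data go against the name mast-like for most of the 369 Cpa3-only cells, which carried innate lymphoid genes.

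**Figure D2:**
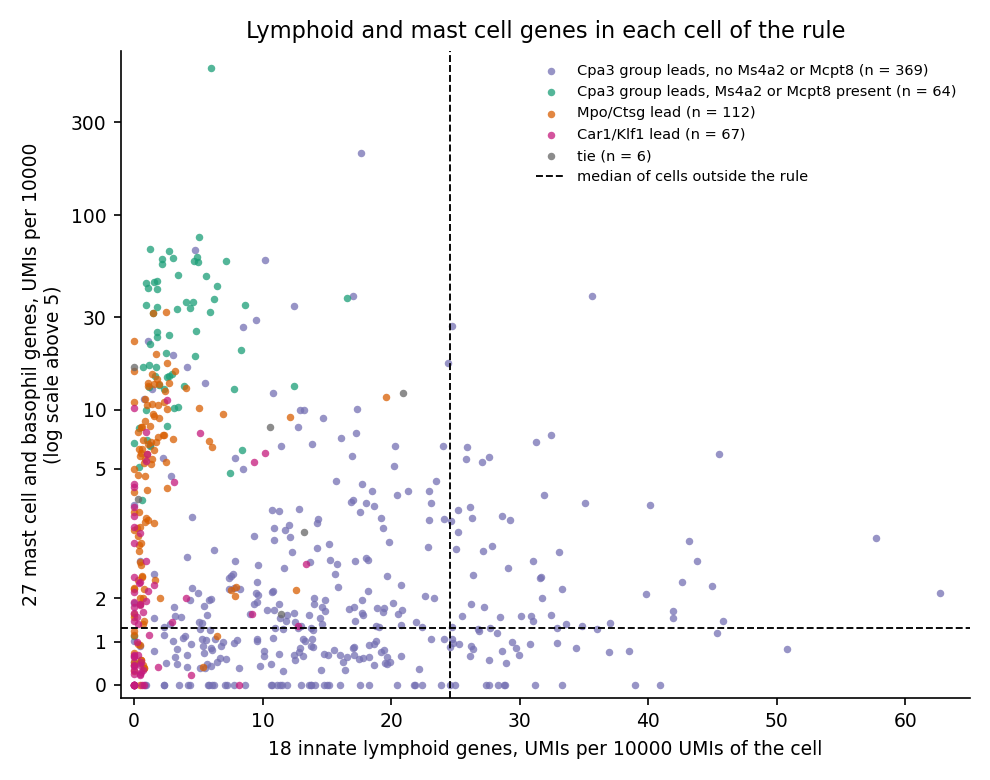
UMIs per 10000 of 27 mast cell and basophil genes (vertical, linear below 5 and logarithmic above) against those of 18 innate lymphoid genes (horizontal) in each selected fetal liver cell, coloured by class; dashed lines mark the medians of the outside cells. Ms4a2-positive cells lie high on the vertical axis with a median of 24.7, whereas Cpa3-only cells lie low on it with a median of 1.48 and extend along the lymphoid axis.

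In the Mpo/Ctsg-led cells, genes of granulocyte progenitors stood above the outside cells, while lymphoid genes stood below them. Prtn3, which encodes proteinase 3, stood at 1304 CPM against 20.8 CPM outside, a log2 ratio of 5.97 (interval 5.89 to 6.06), and was found in 109 of 112 cells. Ms4a3, a gene of granulocyte and monocyte progenitors, stood at 159 against 0.625 CPM (log2 ratio 7.99) and was found in 82 cells. Rnase12, a ribonuclease family gene, stood at 198 against 0.378 CPM (9.03). Hdc, the histidine decarboxylase that makes histamine, stood at 233 against 4.66 CPM (5.64) and was found in 99 cells. A 2-fold difference or more is the size used for every count of genes that follows. By that measure 5.89% of 6601 genes were higher in these cells and 11% were lower, counting a gene if either side reached 10 CPM. A gene that reached 10 CPM on 1 side only was bound to differ in that direction, so list counts below, given without the selecting genes, keep such genes apart and draw nothing from them. Of 15 granule and neutrophil progenitor genes, 4 reached 10 CPM on both sides, and all 4 (Prtn3, Cst7, Clec12a and Plac8) were higher. A further 7 reached it in the class only and 4 on neither side. Summed over all 15, the level was 4128 CPM against 651 CPM outside, and most of the outside sum came from Plac8. Without Plac8, the median Mpo/Ctsg-led cell held 11.0 UMIs of this list per 10000, against 0 in the median outside cell.

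Genes of later maturation did not stand above the outside cells. The 10 late neutrophil granule genes summed to 10.1 CPM against 114 CPM, and the 22 genes of monocytes, macrophages and dendritic cells to 165 CPM against 304 CPM. The 19 stem and multipotent progenitor genes summed to 713 CPM against 283 CPM. Of 17 lineage transcription factors 6 reached 10 CPM on both sides, with 3 higher and 0 lower, and 8 did so in the class only. Spi1, which encodes PU.1, stood at 125 against 12.6 CPM (log2 ratio 3.31) and was found in 98 cells. Cebpa, a transcription factor required for granulocytes, stood at 13.1 CPM (6.27) with a UMI in 28 cells. Gata2 stood at 85.6 against 2.38 CPM (5.17), and Gata1 at 43.0 against 6.30 CPM (2.77).

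Lymphoid genes stood lower in these cells. The 18 innate lymphoid genes summed to 188 CPM against 2347 CPM, with 5 of 5 lower among those at 10 CPM on both sides and 13 at 10 CPM outside only. The 13 lymphoid effector genes summed to 363 CPM against 3724 CPM, with 6 of 7 lower among those at 10 CPM on both sides. Tcf7 stood at 9.34 against 209 CPM (-4.48), and Gata3 at 9.34 against 117 CPM (-3.65). Klrd1, which encodes the natural killer receptor subunit CD94, stood at 5.61 against 396 CPM, and the chemokine gene Ccl5 at 16.8 against 970 CPM. The haemoglobin genes summed to 16.1 CPM against 211 CPM outside.

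The 112 Mpo/Ctsg-led cells were not uniform. Elane, the neutrophil elastase gene, stood at 106 CPM against 0.0912 CPM outside, but 10 cells held 86.6% of its UMIs. At a minimum of 2 UMIs, Elane was found in 22 cells and Ms4a2 in 46, with 4 cells in common and 48 with neither. All 22 cells with Elane also held at least 2 UMIs of Prtn3. The 46 cells were set beside 65 cells with fewer Ms4a2 UMIs, 1 further cell being described below. The division was made after the data were seen and uses Ms4a2. Elane stood at 15.0 CPM in the former and 145 CPM in the latter, Prtn3 at 561 and 1703 CPM, and Cebpe, a factor of granule gene expression, at 0 and 28.4 CPM. Conversely, Hdc stood at 376 and 143 CPM, the basophil protease gene Prss34 at 75.1 and 3.02 CPM, and Gata2 at 139 and 53.8 CPM. Csf2rb, the common beta chain of interleukin 3 and 5 receptors, stood at 62.1 and 18.7 CPM. Mpo differed little, at 1171 and 924 CPM, as did Spi1, at 113 and 132 CPM. Median depths were 20340.5 and 23501 UMIs.

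A single droplet supplied the eosinophil granule signal. Prg2, the major basic protein gene, stood at 120 CPM in the Mpo/Ctsg-led cells, yet 321 of the 322 Prg2 UMIs of all 618 cells were in 1 cell. That cell also held 74 UMIs of Prg3, 79 of Mpo, 110 of Prtn3 and 28 of Elane, and 1 UMI of Epx, the eosinophil peroxidase gene. The log2 ratio of Prg3 over outside cells was 6.21 with this cell and -0.0041 without it.

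In the Car1/Klf1-led cells, genes of early erythroid cells were higher while haemoglobin genes were not. Blvrb, which encodes biliverdin reductase B, stood at 416 CPM against 32.7 CPM outside (log2 ratio 3.67, interval 3.54 to 3.79) and was found in 64 of 67 cells. Smim1, which carries the Vel blood group antigen, stood at 206 against 7.95 CPM (4.70). The metallothionein gene Mt1 stood at 863 against 30.3 CPM (4.83), and Lmo2, a partner of Gata1 complexes, at 206 against 8.38 CPM (4.62). Among 6580 genes, 6.06% were higher and 15.3% lower. Of 26 erythroid progenitor genes besides Car1 and Klf1, 4 reached 10 CPM on both sides, and 3 of these were higher. A further 12 reached it in the class only. Summed over all 26, the level was 1058 CPM against 172 CPM outside. The same sum was 390 CPM in Ms4a2-positive, 247 CPM in Mpo/Ctsg-led and 171 CPM in Cpa3-only cells.

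Receptor and membrane genes of this lineage were detected in part of the cells. Epor, the erythropoietin receptor gene, stood at 21.8 against 0.743 CPM (4.87) and had a UMI in 25 cells. Ermap and Rhd, both of blood group membrane proteins, were found in 17 and 14 cells. Gata1, the main erythroid transcription factor, stood at 76.8 against 6.30 CPM (3.61) and was found in 54 cells. Gata2, which precedes it in progenitors, stood at 47.8 CPM (4.33), and Myb, a factor of proliferating progenitors, at 182 against 30.2 CPM (2.59). Tfrc, the transferrin receptor gene that supplies iron, stood at 28.4 against 18.6 CPM, a log2 ratio of 0.61.

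The 12 haem synthesis genes summed to 525 CPM against 196 CPM, with 4 of 5 higher among those at 10 CPM on both sides. Among them Alad, of an early step, had a log2 ratio of 1.60, and Urod, of a later step, stood at 113 CPM (1.31). Cpox had a log2 ratio of 1.56, or 0.47 without its 10 cells with most UMIs. Alas2, the erythroid enzyme of the first step, had 0 UMIs, and so did Slc4a1, the band 3 anion exchanger gene. With the limit for a count of 0 set at 3 UMIs, this allows up to 1.82 CPM. The haemoglobin genes summed to 53.9 CPM against 211 CPM outside. Hbb-bs stood at 4.84 against 94.2 CPM (-4.28), and Hbb-bt at 24.8 against 35.3 CPM. The pairs Hba-a1 and Hba-a2 and Hbb-bs and Hbb-bt are near-identical copies, so the division of reads between them is uncertain.

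Of the other gene lists, some stood below the outside level by sum in the Car1/Klf1-led cells and others stood near or above it. The 18 innate lymphoid genes summed to 165 CPM against 2347 CPM and the 13 lymphoid effector genes to 409 CPM against 3724 CPM, with 4 of 4 and 7 of 7 lower among those at 10 CPM on both sides. The cytokine genes Il22 and Lta stood at 1.82 and 7.26 CPM against 147 and 291 CPM outside. The 15 megakaryocyte and platelet genes summed to 77.4 CPM against 70.4 CPM. The 15 granule and neutrophil progenitor genes summed to 738 CPM against 651 CPM, with 2 of 3 higher among those at 10 CPM on both sides. Without Plac8, at least 5 UMIs of these were present in 14 of 67 cells (20.9%), against 1.64% of outside cells. The 19 stem and multipotent progenitor genes summed to 699 CPM against 283 CPM, with 2 of 5 higher among those at 10 CPM on both sides. The 29 mast cell and basophil genes besides the selecting ones summed to 399.9 CPM against 1066 CPM. Without Fcer1g and Kit, the rest of that list summed to 164 CPM against 185 CPM outside. At least 5 UMIs of the rest were present in 28 of 67 cells (41.8%), against 9.24% of the outside cells, which were shallower.

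Summed as 1 class, the 433 cells led by the Cpa3 group showed 2.34% of 6457 genes higher and 3.98% lower. Of 29 mast cell and basophil genes besides the selecting ones, 8 reached 10 CPM on both sides, with 2 higher and 0 lower. Of the innate lymphoid genes 16 did so, with 8 lower and 0 higher. The levels below are given apart for the 64 and the 369 cells, because the sums mix them.

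In the 64 Ms4a2-positive cells, genes of basophil and mast cell granules, receptors and mediators stood above the outside cells. Hdc stood at 563 against 4.66 CPM (log2 ratio 6.92, interval 6.73 to 7.10) and was found in 63 of 64 cells. Prss34, a basophil protease gene, stood at 415 against 0.0651 CPM (12.64) and was found in 36 cells. Among 6638 genes, 8.18% were higher and 10.1% lower. Of 29 mast cell and basophil genes besides Ms4a2, Mcpt8 and Cpa3, 8 reached 10 CPM on both sides, with 4 higher and 0 lower, and 14 reached it in the class only. Summed over all 29, the level was 4386 CPM against 1066 CPM outside.

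Receptors came next in the order of roles. Fcer1a, the alpha chain of the immunoglobulin E receptor, stood at 32.0 CPM with a UMI in 18 cells. Its log2 ratio of 11.26 rests on 1 outside UMI. Csf2rb stood at 106 against 0.326 CPM (8.35) and was found in 52 cells. Cd200r3, an activating receptor of basophils and mast cells, stood at 192 against 2.34 CPM (6.36) in 41 cells. Il1rl1, the interleukin 33 receptor gene, stood at 51.7 CPM (3.42). Kit, the stem cell factor receptor gene and a mast cell marker, stood at 27.9 CPM against 26.7 CPM outside and so was at the level of the outside cells.

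Among mediators, the cytokine gene Il6 stood at 144 against 0.156 CPM (9.84) with a UMI in 47 cells, and Il4 at 141 against 24.7 CPM (2.51). All 4 eicosanoid and proteoglycan genes at 10 CPM on both sides were higher, and the 11 listed summed to 6643 CPM against 796 CPM. Alox5ap, the activating protein of leukotriene synthesis, stood at 879 against 27.4 CPM (log2 ratio interval 4.90 to 5.11), and Srgn, the granule proteoglycan serglycin, at 5576 against 722 CPM (2.95). Gata2, a transcription factor required for mast cells and basophils, stood at 227 against 2.38 CPM (6.57) and was found in 59 cells. The 15 granule and neutrophil progenitor genes summed to 3408 CPM against 651 CPM, and most of the outside sum came from Plac8. Without Plac8, the median Ms4a2-positive cell held 4.70 UMIs of this list per 10000, against 0 in the median outside cell. Mpo was found in 57 cells and Ctsg in 42, but Elane had 1 UMI in all 64 cells. Lymphoid levels were low, with the 18 innate lymphoid genes at a summed 372 CPM against 2347 CPM and Tcf7 at 11.5 CPM in 4 cells.

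Mast cell and basophil proteases were each found in part of the Ms4a2-positive cells. At a minimum of 2 UMIs, Mcpt8 was found in 36 cells and Prss34 in 28, with 26 in common. Of the 36 Mcpt8 cells, 33 also held at least 2 Ms4a2 UMIs. Cma1, the chymase of connective tissue mast cells, was found at that minimum in 5 cells, 2 of them also with Mcpt8. Neither gene was found at it in 25 cells. Cma1 stood at 310 CPM over the class, but 313 of its 415 UMIs among all 618 cells were in 1 cell. That cell held 71 UMIs of the tryptase gene Tpsb2, 32 of 33 UMIs of Mcpt4, 96 of Cpa3, 1 of Ms4a2 and 0 of Tcf7. Another cell with tryptase RNA was counted among the Cpa3-only cells, since it had no Ms4a2 UMI: it held 95 UMIs of Tpsb2, 28 of Cma1, 111 of Cpa3, 7 of Prss34 and 0 of Tcf7.

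**Figure D3:**
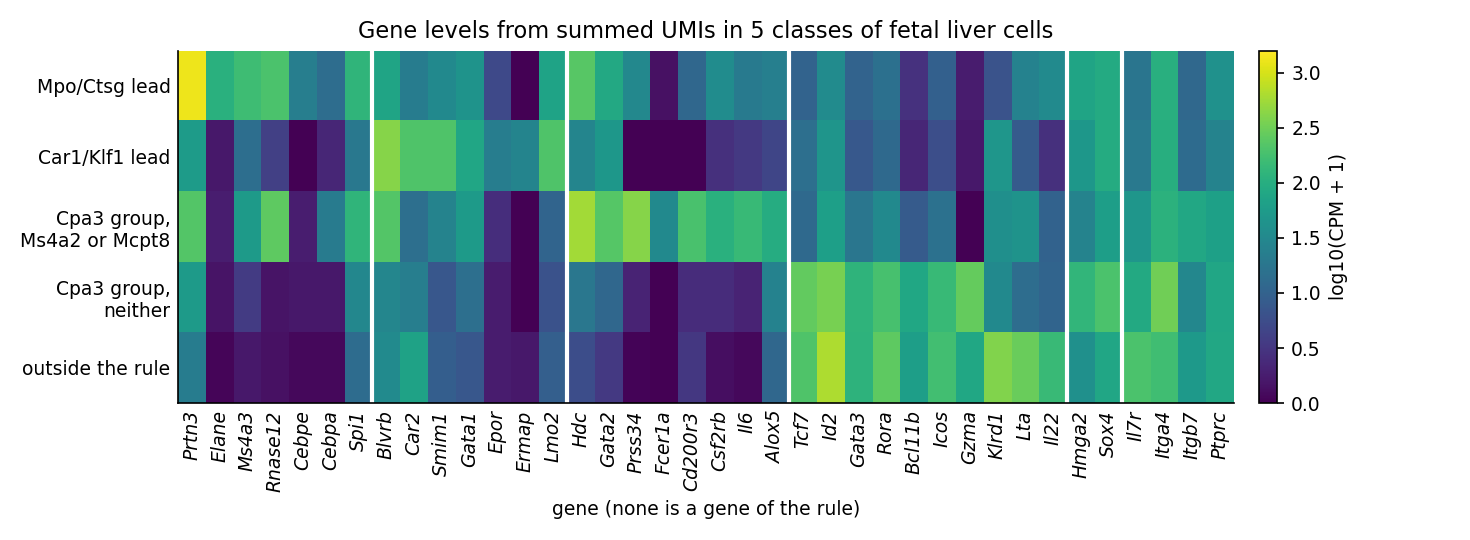
Levels of 38 genes (columns) as log10 of CPM plus 1 in the 4 classes of selected cells and the outside cells (rows), from summed UMIs of each class. Elane and Prtn3 are brightest in the Mpo/Ctsg-led cells, Blvrb and Gata1 in the Car1/Klf1-led cells and Hdc and Gata2 in the Ms4a2-positive cells, while Tcf7 stands at 266 CPM in the Cpa3-only cells and 209 CPM outside.

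The 369 Cpa3-only cells differed least from the outside cells by number of genes, with 1.72% of 6451 genes higher and 4.17% lower. Tcf7 stood at 266 against 209 CPM (log2 ratio 0.35) and was found in 279 cells, 75.6%, against 60.8% of outside cells. Gata3 stood at 120 against 117 CPM (0.03, interval -0.08 to 0.13). Bcl11b, a T cell and innate lymphoid factor, stood at 78.7 against 60.7 CPM (0.37) and Tox, a factor of early innate lymphoid development, at 90.0 against 63.2 CPM (0.51). Id2, the inhibitor of E proteins in committed innate lymphoid cells, was at 349 against 640 CPM (-0.88), and Rora at 187 against 256 CPM (-0.45). The 18 innate lymphoid genes summed to 1570 CPM against 2347 CPM. Of 16 that reached 10 CPM on both sides 7 were lower and 0 higher.

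The 13 lymphoid effector genes summed to 1547 CPM against 3724 CPM. Of 10 that reached 10 CPM on both sides 6 were lower and 1 higher. Lta, which encodes lymphotoxin alpha, stood at 12.9 against 291 CPM (-4.49) and Il22 at 9.84 against 147 CPM (-3.90). Klrd1 stood at 31.8 against 396 CPM (-3.64), Cd7 at 34.8 against 371 CPM (-3.42) and Ifng, the interferon gamma gene, at 20.6 against 181 CPM (-3.13). The higher gene was Gzma, the granzyme A gene, at 276 against 79.3 CPM (1.80) with a UMI in 129 cells. Cd3g, a T cell receptor complex gene, stood at 290 against 304 CPM.

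Genes higher in the Cpa3-only cells included several of progenitors and fetal cells. Plac8 stood at 1929 against 590 CPM (1.71), and Hmga2, a chromatin protein of fetal stem cells, at 128 against 39.1 CPM (1.71). Sox4, a transcription factor of early lymphoid cells, stood at 196 against 78.3 CPM (1.32). Metabolic genes in the list were Gyg, of glycogen synthesis, at 290 against 119 CPM (1.29) and Idh2, a mitochondrial dehydrogenase, at 255 against 107 CPM (1.25). The 19 stem and multipotent progenitor genes summed to 381 CPM against 283 CPM, with 2 higher and 1 lower of 6 at 10 CPM on both sides. Of 7 fetal growth genes at 10 CPM on both sides 1 was higher, Hmga2, and H19 stood at 114 against 106 CPM.

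Mast cell genes were found in part of these cells. The 29 mast cell and basophil genes besides the selecting ones summed to 802 CPM against 1066 CPM, with 1 of 8 higher among those at 10 CPM on both sides and 6 at 10 CPM in the class only. Most of the outside sum came from Fcer1g and Kit. Without them the other 27 genes summed to 264 CPM against 185 CPM outside. Hdc stood at 17.5 CPM with a UMI in 28 of 369 cells, Gata2 at 10.6 CPM in 32 cells, Prss34 at 1.08 CPM in 1 cell, and Fcer1a had 0 UMIs. At least 5 UMIs of the 27 mast cell and basophil genes were present in 97 of the 369 cells (26.3%), against 717 of 7762 outside cells (9.24%), with the difference in depth given below. Of the 97 cells, 85 also held at least 5 UMIs of innate lymphoid genes. Ms4a2 and Mcpt8 were absent by the choice of these cells.

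Because Cpa3 selected these cells at a fixed minimum, fetal liver cells without a UMI of Ms4a2 or Mcpt8, and without a lead of Mpo and Ctsg or of Car1 and Klf1 over Cpa3, were ordered by their Cpa3 UMIs. There were 5746 cells with 0 UMIs of any selecting gene, 1007 with 1 to 2, 529 with 3 to 5, 291 with 6 to 9, 274 with 10 to 19 and 89 with 20 or more. In that order Klrd1 stood at 494, 306, 146, 107, 36.7 and 21.5 CPM, and Cd7 at 509, 141, 89.1, 66.8, 36.2 and 29.9 CPM. Both levels were lower at each step. Lta stood at 416 CPM without Cpa3 and at 56.9 CPM already with 1 to 2 UMIs.

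Progenitor genes ran the opposite way over the same cells. Plac8 stood at 277, 905, 1447, 1881, 1984 and 1806 CPM, and Hmga2 at 23.4, 57.6, 70.2, 96.0, 122 and 141 CPM. Sox4 stood at 53.8 CPM with 0 Cpa3 UMIs and 172 CPM with 20 or more, and Myb at 15.4 and 88.6 CPM. Gzma was highest at 386 CPM in cells with 6 to 9 Cpa3 UMIs. Tcf7 changed little, at 207, 207, 258, 265, 272 and 265 CPM, while Id2 stood at 713 CPM at the low end and 321 CPM at the high end. Hdc stood at 4.41, 3.16, 4.31, 5.84, 12.1 and 26.5 CPM in that order, higher at the high end, against 563 CPM in Ms4a2-positive cells. Median depth went from 7893.5 to 19837 UMIs over the same order, and its part in these values was not tested.

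**Figure D4:**
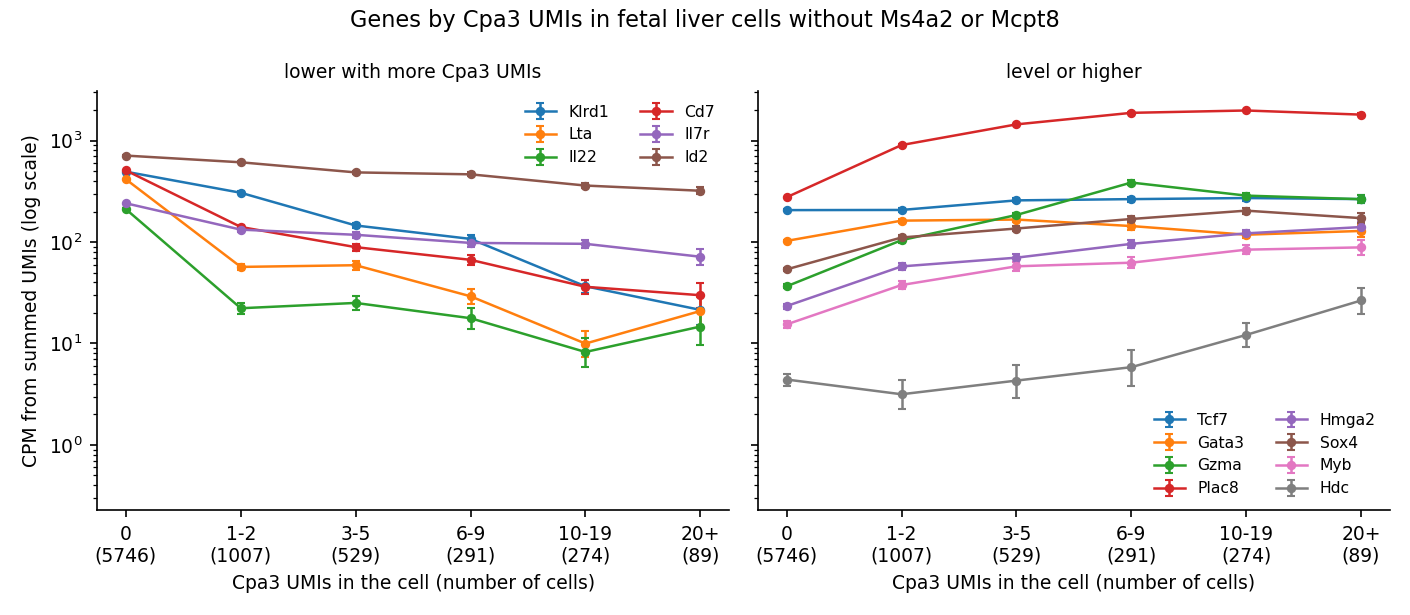
CPM (logarithmic axis) of named genes in fetal liver cells without a UMI of Ms4a2 or Mcpt8, by number of Cpa3 UMIs in the cell; bars are exact counting intervals of the summed UMIs. Klrd1 runs from 494 down to 21.5 CPM and Hmga2 from 23.4 up to 141 CPM, whereas Tcf7 stays between 207 and 272 CPM.

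Genes of the gate stood at different levels in some classes, but Il7r, Itgb7 and Itga4 were close in Mpo/Ctsg-led and Car1/Klf1-led cells. Of 5 gate genes at 10 CPM on both sides, 3 were lower in Mpo/Ctsg-led and 3 in Car1/Klf1-led cells. In Ms4a2-positive cells 1 was lower and 1 higher, and in Cpa3-only cells 1 was lower and 0 higher. Il7r, which encodes CD127, stood at 198 CPM in outside cells, 88.1 CPM in Cpa3-only cells (log2 ratio -1.17), 46.8 CPM in Ms4a2-positive cells (-2.08), 18.8 CPM in Car1/Klf1-led cells (-3.40) and 16.4 CPM in Mpo/Ctsg-led cells (-3.59). It had a UMI in 13 of 112 Mpo/Ctsg-led cells, 8 of 67 Car1/Klf1-led cells and 27 of 64 Ms4a2-positive cells. RNA counts do not measure the surface protein on which the cells were sorted. Itgb7, the beta chain of α4β7, stood at 81.3 CPM in Ms4a2-positive cells against 52.2 CPM outside (0.64) and at 11.2, 12.1 and 29.4 CPM in Mpo/Ctsg-led, Car1/Klf1-led and Cpa3-only cells. Itga4, the alpha chain, stood at 104 CPM in Mpo/Ctsg-led cells, 102 CPM in Car1/Klf1-led cells and 321 CPM in Cpa3-only cells, against 164 CPM outside. Ptprc, which encodes CD45, stood at 40.7 CPM in Mpo/Ctsg-led and 26.0 CPM in Car1/Klf1-led cells, against 81.6 CPM outside.

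All 4 classes had a higher depth than the outside cells. Of the progenitor list, Myb and Adgrg1 stood at least 2-fold above the outside cells in each class. Gata2 and Angpt1 were also higher in each class but stayed below 10 CPM outside, so nothing is drawn from them here. Lower in each class were Il7r, by at least 2-fold, and the sums of the innate lymphoid, lymphoid effector and haemoglobin genes. Median depths were 21648 UMIs in Mpo/Ctsg-led cells, 22788 in Car1/Klf1-led cells, 16551 in Ms4a2-positive cells and 16638 in Cpa3-only cells, against 8868.5 outside. A minimum set in UMIs takes deeper cells more readily, and the part of depth in these values was not tested. Of the S phase genes at 10 CPM on both sides, none was higher in any class. Lower ones numbered 0 of 40 in Mpo/Ctsg-led cells, 1 of 39 in Car1/Klf1-led cells, 1 of 39 in Ms4a2-positive cells and 0 of 40 in Cpa3-only cells. Of the G2 and M phase genes at 10 CPM on both sides 1 of 41 (Cks2), 2 of 41, 4 of 41 and 0 of 42 were higher in the same order, and none was lower.

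By their sums, hepatocyte, stromal and endothelial markers stood below the outside level in each class, and B lineage genes did so except in Cpa3-only cells. In Cpa3-only cells 0 of the 2 hepatocyte, stromal and endothelial genes at 10 CPM on both sides were lower past 2-fold. Hepatocyte, stromal and endothelial genes summed to 26.2 CPM in Mpo/Ctsg-led cells, 32.7 CPM in Car1/Klf1-led cells, 51.7 CPM in Ms4a2-positive cells and 81.6 CPM in Cpa3-only cells, against 112 CPM outside, over 13 listed genes. B lineage genes, limited by the rule, summed to 116 CPM in Cpa3-only cells and between 35.3 and 50.8 CPM in the other classes, against 70.6 CPM outside. Of these only Mzb1, a chaperone of antibody-secreting and early B cells, was higher, at 74.1 against 27.3 CPM in Cpa3-only cells.

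In adult bone marrow the same rule took 95 of 7258 cells, 1.31% (interval 1.06 to 1.60%). Of these, 2 were led by Mpo and Ctsg, 9 by Car1 and Klf1 and 84 by the Cpa3 group, with 78 of the 84 lacking Ms4a2 and Mcpt8. Bone marrow was shallower, with a median of 3426 UMIs in its outside cells, so a fixed number of UMIs asks for more there. Tissue, age and library cannot be told apart in this design.

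The 78 Cpa3-only cells of bone marrow were described against 7161 bone marrow cells outside the rule, where 5.83% of 6986 genes were higher and 7.79% lower. At least 5 UMIs of innate lymphoid genes were found in 72 of the 78 cells (92.3%) and in 89.9% of those outside cells. Median depths were 7470 and 3426 UMIs. The 18 innate lymphoid genes summed to 1950 CPM against 4074 CPM, with 10 of 16 lower among those at 10 CPM on both sides. Tcf7 stood at 445 against 273 CPM (log2 ratio 0.70) and Plac8 at 4363 against 1342 CPM (1.70), while 61.1% of the Gzma UMIs were in 1 cell. Klrd1 stood at 3.22 against 163 CPM (-5.66), Id2 at 283 against 958 CPM (-1.76) and Gata3 at 180 against 426 CPM (-1.24). Hmga2 stood at 8.04 against 9.90 CPM, compared with 128 against 39.1 CPM in fetal liver, and Gata2 had 0 UMIs. Of 34 G2 and M phase genes at 10 CPM on both sides 20 were higher. The direction for Tcf7, Plac8, Klrd1 and Id2 was the same within each tissue. Other genes differed: Hmga2 was higher only in fetal liver. Gata3 was lower past 2-fold, and G2 and M phase genes higher past it, only in bone marrow. The difference between tissues was not tested.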

How the data were processed

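The authors deposited UMI counts of each gene in each cell barcode, without normalization, for 1 fetal liver and 1 bone marrow library. Per the labels' protocols, 10x Chromium 3' libraries were sequenced and barcodes without cells were removed by the authors. Software version 3.0.1 is named per the file headers, and mm10 and Seurat 4.0 in the submitters' processing notes. No aligner is named. The deposited gene and barcode lists hold identifiers only (other).

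Cells with at least 500 genes and at most 10% mitochondrial UMIs were kept. The members and gene lists were chosen with earlier results of these data known. UMIs were summed per class, divided by the class total and multiplied by 1000000 (CPM). Ratios carry exact conditional 95% intervals and shares Clopper-Pearson intervals. Genes that reached 10 CPM on either side were counted as higher or lower past 2-fold. Each class comparison was between cells of 1 library, so no test was made. Scripts were tested on simulated data. Named genes were the 10 largest and 5 smallest ratios among genes with at least 100 CPM, the 5 largest between leads, gate genes, lineage transcription factors with at least 50 CPM, and the 4 highest members of each list; other genes were chosen after their values were seen. Symbols without a proper name, mitochondrial and ribosomal genes were passed over. Some genes are not reported here. Alternatives changed the marker minimum, lead rule, cell filters, scaling, count minimum and doublet removal (Scrublet in scanpy 1.11.5). Python 3.11.15, numpy 2.4.6, scipy 1.17.1, pandas 2.3.3 and matplotlib 3.10.9 were used.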

Additional observations from a re-analysis of the deposited data

Results flagged for a closer look

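Among the fetal liver barcodes that the filters on genes and mitochondrial UMIs left out, 1 held at least 10 UMIs of the selecting genes, a signal in data that none of the comparisons used.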

How the results depend on the processing

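The share of fetal liver cells taken by the rule was 12.8% with a minimum of 5 marker UMIs, 3.15% with 20 and 4.46% with 1 marker UMI per 1000 UMIs. The Mpo/Ctsg-led share of members was 11.9% with a minimum of 5, 30.0% with 20, 11.0% where the lead needed 3 times the next group and 24.6% with groups scaled to their means. The Car1/Klf1-led share was 7.31% with 1 marker UMI per 1000. The Cpa3-group-led share was 77.7%, 58.9%, 62.6% and 62.8% under those same 4 settings of the Mpo/Ctsg-led share, in that order. The Cpa3-only share of that group was 85.2%, and was 91.8% with a minimum of 5 and 62.9% with 20. With at least 50 CPM, higher and lower genes numbered 114 and 194 (Mpo/Ctsg-led), 128 and 278 (Car1/Klf1-led), 44 and 82 (all Cpa3-group-led), 199 and 146 (Ms4a2-positive) and 28 and 88 (Cpa3-only). With no minimum and a pseudocount of 1 CPM they numbered 660 and 1585, 685 and 2160, 301 and 488, 914 and 1759, and 211 and 505. With a minimum of 20 marker UMIs, 230 genes were higher in all Cpa3-group-led cells, and with the mean of per-cell CPM 179 were higher in Cpa3-only cells. Scaling by a median-ratio size factor shifted the all-gene median log2 ratio most in Car1/Klf1-led cells, from -0.10 to -0.01. Of 1146 recomputed ratios of named genes 1128 kept their sign, and of 911 past 2-fold 886 remained so. Many of these genes were named for large ratios in these same cells, which favours that outcome. With a minimum of 20 marker UMIs Sox4 and Gyg in Cpa3-only cells stood at 0.98 and 0.99. At that minimum Gzma and Mzb1 in all Cpa3-group-led cells stood at 0.72 and 0.79. The log2 ratio of Prg3 in Mpo/Ctsg-led cells turned from 6.21 to -0.0041 without the Prg2 cell, and that of Afp, an alpha-fetoprotein gene of few UMIs, in all Cpa3-group-led cells from 1.01 to -0.27 without its 10 highest cells. The cause of the other shifts was not tested. No paired analysis was possible because there was 1 library per tissue. The split by Ms4a2 and Mcpt8 and the removal of the Prg2 cell were chosen after seeing the data.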

Other observations

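In bone marrow, 6 of the 84 cells led by the Cpa3 group held UMIs of Ms4a2 or Mcpt8, with 119 Mcpt8 UMIs among them. A single bone marrow cell led by Mpo and Ctsg held 745 UMIs of Prg2.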
